A study of Mus musculus with 8 samples.

Results

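Chemokines are small secreted proteins that draw leukocytes into tissues, and they act through G protein-coupled receptors on the cells they attract. CC ligands such as those that bind Ccr2 are known for recruiting monocytes, CXC ligands that bind Cxcr2 for recruiting neutrophils, and the CX3C ligand Cx3cl1 and the CXC ligand Cxcl16 are made as membrane-anchored proteins that both attract and hold cells. In the stressed heart this system is known for steering the entry of monocytes that become macrophages beside the resident ones. The genes described here are the mouse chemokine ligand genes (Ccl, Cxcl, Cx3cl, Xcl) and their classical receptor genes (Ccr, Cxcr, Cx3cr, Xcr), chosen by symbol alone from probe sets that the platform annotation pairs with exactly 1 gene. They came to 50 of 19938 measured genes, 33 ligands and 17 receptors, and each was read by the probe set with the highest mean over the 8 arrays. Cxcl11, annotated as a pseudogene in RefSeq GRCm38.p6, and Ccr1l1, a receptor-like symbol, were left out by the rule.

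The hearts came from mice of the C57Bl6 background aged 9 weeks, and 4 groups were measured with 2 animals and 2 Affymetrix arrays each. Mice homozygous for Gata4 S105A, a serine-to-alanine change in the heart transcription factor GATA4, were animals 7 and 8 with PE and animals 5 and 6 without it. WT mice with PE were animals 3 and 4, and untreated WT mice were animals 1 and 2. PE, which the labels spell out as pseudoephedrine, was delivered by osmotic pumps under the skin over 5 days, at a daily dose of 100 mg per kg. The controls carry the title untreated, while the protocol names saline, and the tissue is called heart in one field and ventricle in another. Values are log2 expression levels made comparable between arrays by the authors with RMA, so a difference of 1 is a doubling.

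The median log2 level of an array was 6.18 to 6.23. The summed linear level of 10 cardiomyocyte markers was 95124 to 106709 in PE hearts and 105815 to 106607 in untreated hearts, so markers of heart muscle were abundant in every array. Gata4 mRNA lay between 9.92 and 10.16 in PE hearts and between 9.96 and 10.14 in untreated hearts, and a point substitution is not visible to its probe set, so this does not check the genotype labels. Myh7, a gene of cardiac hypertrophy, was 2.30 log2 units higher with PE (SE 0.12, limma adjusted p = 0.00808). Within each PE group the 2 animals differed, and with 2 animals it cannot be told which of them is the unusual one. The summed level of 10 fibroblast markers was 33488 in animal 3 and 28151 in animal 7, against 17314 and 18559 in animals 4 and 8, and 11192 to 13664 in the untreated hearts. Values without animals 3 and 7, the pair with the higher sums, are therefore given beside the main chemokine results. This pair was chosen after the values were seen, and leaving out animals 4 and 8 together was not run.

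PE against untreated, averaged over the genotypes, was the broadest comparison, and no chemokine or receptor gene passed an adjusted p of 0.05 in limma's test across all genes, where 1 gene in all did (0.00502%). The smallest adjusted p among the 50 genes was 0.275. At an unadjusted p under 0.05, 8 of the 50 (16.0%) were higher with PE, namely the ligands Ccl3, Ccl8, Ccl9, Cxcl10 and Cxcl16 and the receptors Ccr2, Cx3cr1 and Cxcr6, beside 9.31% of all genes. The eotaxins Ccl11 and Ccl24 were the 2 lower ones, beside 7.44% of all genes. In 6 of the 50 every PE heart exceeded every untreated heart, namely Ccr2, Ccl9, Cxcl16, Cxcr6, Cx3cr1 and Cx3cl1, beside 6.70% of all genes. The reverse held for 0 of the 50, beside 6.15% of all genes. The median log2 difference was 0.01 over the 50 genes and -0.02 over all genes. The members ranged from -0.88 to 1.54, and 11 of 50 (22.0%) differed by at least 0.5 in either direction, as did 5.66% of all genes. Dropping single arrays changed the count of 10 genes at an unadjusted p under 0.05 to 5 without animal 5, 6 or 7 and to 15 without animal 4.

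**Figure D1:**
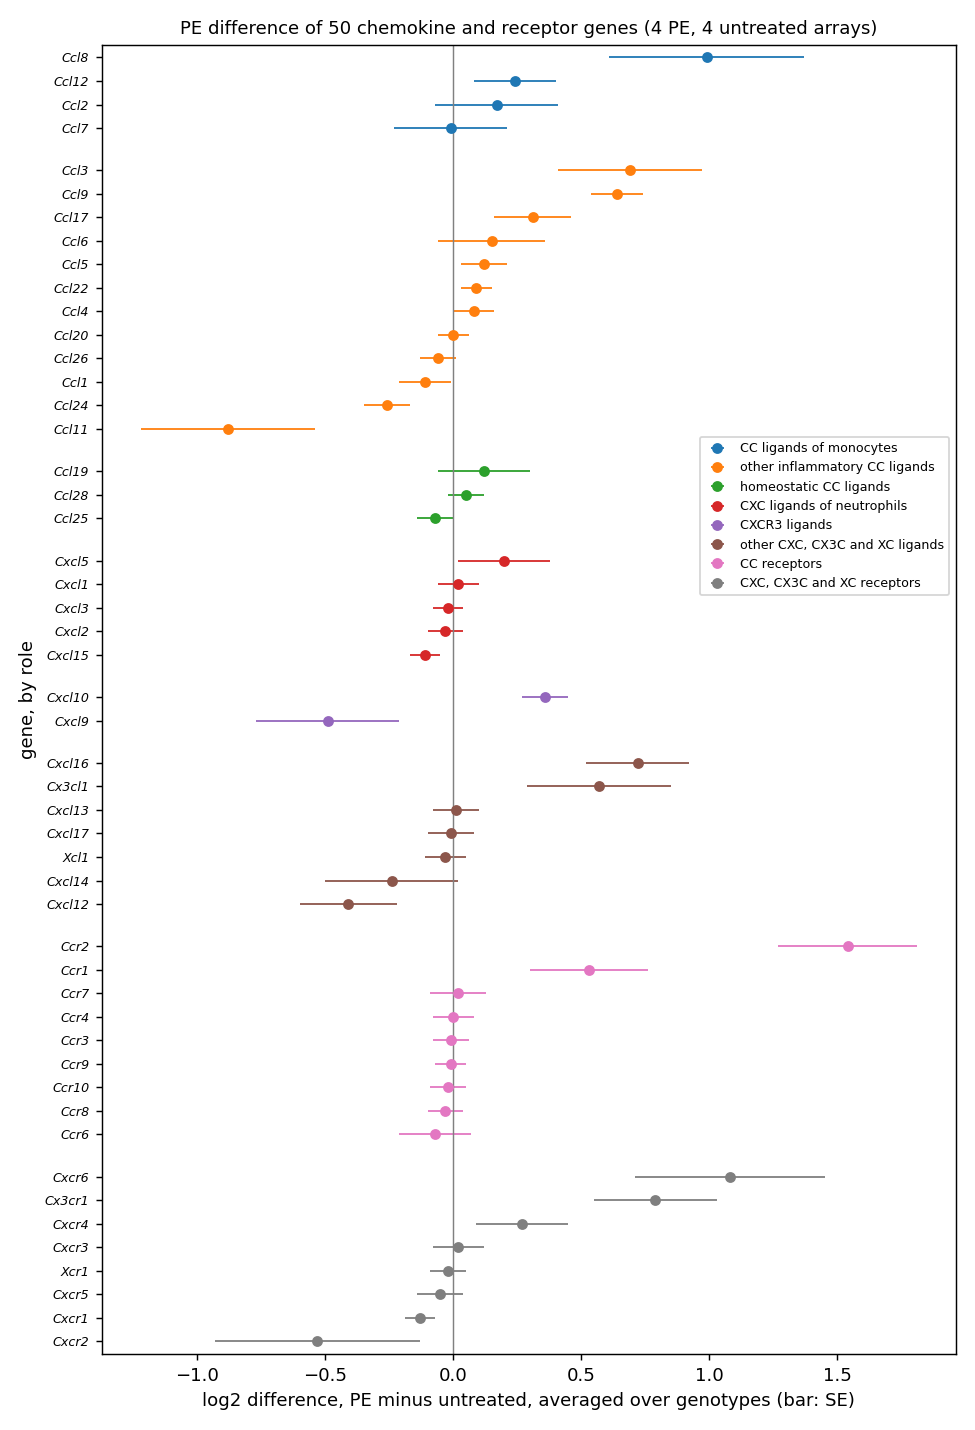
Log2 difference between PE and untreated hearts, averaged over the genotypes, for each of the 50 genes (points, with SE bars from the fit of all 8 arrays), ordered and coloured by role. Ccr2 stands at 1.54 and Cxcr6 at 1.08, Ccl11 stands at -0.88, and most of the other genes lie within 0.5 of 0.

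The receptors held the widest differences. Ccr2 is the receptor that lets inflammatory monocytes follow Ccl2 and related ligands out of the marrow and into tissue. Its log2 level, in order of animal number within a group, was 8.52 and 7.27 in WT PE hearts against 5.95 and 6.04 in WT untreated hearts, and 7.41 and 6.80 in S105A PE hearts against 5.92 and 5.90 in S105A untreated hearts. All 4 PE hearts were above all untreated hearts, whose levels spanned little, while the PE hearts differed widely among themselves and animals 3 and 7 were the higher of their pairs. The averaged difference was 1.54 (SE 0.27, 2.92-fold, limma unadjusted p = 0.000874, adjusted p = 0.275). Without animals 3 and 7 it was 1.08 and passed the adjusted threshold (limma adjusted p = 0.00232), a setting in which the spread comes from the untreated hearts alone. In RNA from whole tissue, more cells of a type and more RNA per cell cannot be told apart, for Ccr2 and for all the genes that follow.

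Cxcr6, the receptor of Cxcl16 that is known from T and natural killer T cells, was the second in size. Its log2 level was 6.85 and 5.24 in WT PE hearts against 4.80 and 4.71 in WT untreated hearts, and 6.22 and 5.24 in S105A PE hearts against 4.86 and 4.87 in S105A untreated hearts. The groups did not overlap, but animals 3 and 7 were far above the other PE hearts. The difference was 1.08 (SE 0.37, limma unadjusted p = 0.0226), and it was 0.43 without animals 3 and 7. Cx3cr1, the receptor of Cx3cl1 found on patrolling monocytes and macrophages, had log2 levels of 9.06 and 7.86 in WT PE hearts against 7.52 and 7.36 in WT untreated hearts, and 8.11 and 7.90 in S105A PE hearts against 7.41 and 7.46 in S105A untreated hearts. Here animal 3 was the outstanding heart, and the other PE hearts lay close together just above the untreated ones. The difference was 0.79 (SE 0.24, limma unadjusted p = 0.0144), and 0.44 without animals 3 and 7.

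Ccr1, the receptor of Ccl3, Ccl9 and Ccl5 on monocytes and neutrophils, had log2 levels of 5.80 and 5.25 in WT PE hearts against 4.85 and 5.48 in WT untreated hearts, and 5.57 and 4.84 in S105A PE hearts against 4.34 and 4.67 in S105A untreated hearts. Untreated animal 2 lay above PE animals 4 and 8, so the groups overlapped, and the difference of 0.53 (SE 0.23) did not reach an unadjusted p of 0.05 (limma unadjusted p = 0.0553) and was 0.21 without animals 3 and 7. Cxcr2, the neutrophil receptor of Cxcl1 and Cxcl2, had log2 levels of 4.57 and 5.41 in WT PE hearts against 4.89 and 6.78 in WT untreated hearts, and 4.71 and 4.83 in S105A PE hearts against 4.94 and 5.05 in S105A untreated hearts. Its difference of -0.53 (SE 0.40, limma unadjusted p = 0.228) rested on untreated animal 2, and was -0.06 without that heart. In the same heart the summed level of 11 neutrophil markers was 1054, against 466 to 532 in the PE hearts and 471 to 510 in the other untreated hearts. Cxcr4, which binds Cxcl12, ranged from 6.86 to 7.22 in PE hearts and from 6.37 to 7.15 in untreated hearts, a difference of 0.27 (SE 0.18). Of the 17 receptors, the remaining 11 had differences from -0.13 for Cxcr1 to 0.02 for Cxcr3 and Ccr7. Ccr3, Ccr4, Ccr8, Ccr9, Xcr1 and Cxcr5, receptors of eosinophils and of lymphocyte and dendritic cell subsets, were all within 0.05 of 0. The receptors in that last group were all among the lowest 40% of genes by level, where no change cannot be told from no detection. Ccr1 and Cxcr2 were also among the lowest 40%.

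**Figure D2:**
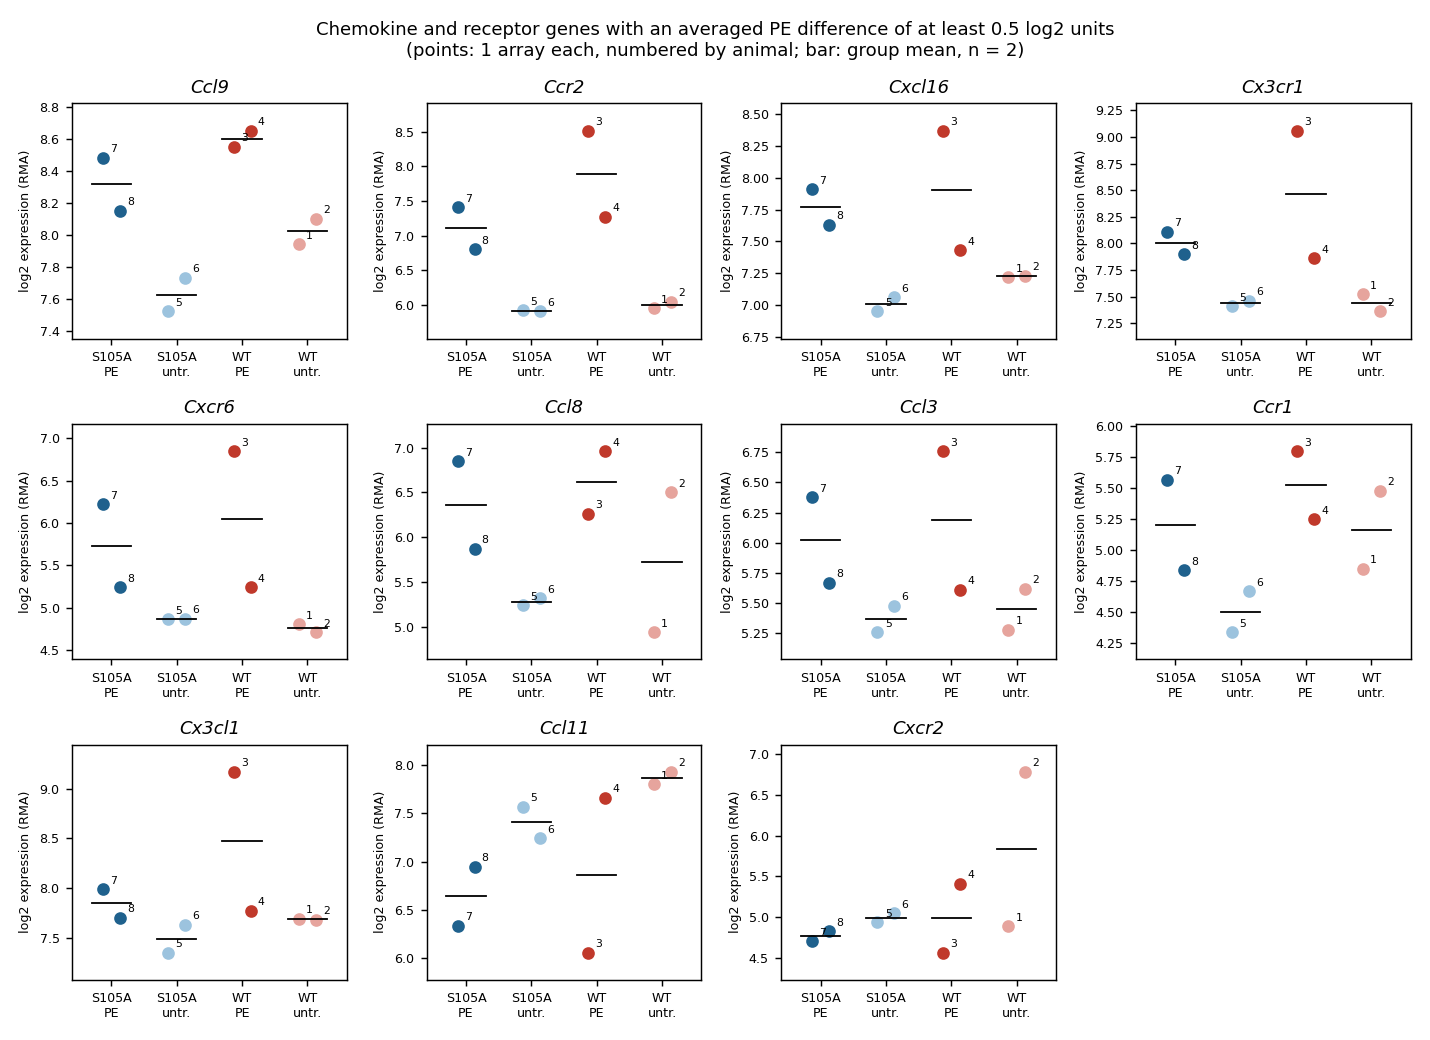
Log2 expression in each array (points, numbered by animal) with the group mean (bar, 2 arrays each) for the 11 genes whose averaged PE difference was at least 0.5 in size. Ccr2, Ccl9, Cxcl16, Cx3cr1, Cxcr6 and Cx3cl1 show all PE hearts above all untreated hearts, and in these 6 panels animals 3 and 7 are the higher of their groups, with Ccl9 in WT as the exception.

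Among the CC ligands, Ccl9, a mouse ligand of Ccr1, had the smallest p of the family. Its log2 level was 8.55 and 8.65 in WT PE hearts against 7.94 and 8.10 in WT untreated hearts, and 8.48 and 8.15 in S105A PE hearts against 7.52 and 7.73 in S105A untreated hearts. All PE hearts were above all untreated hearts, animal 4 was as high as animal 3, and the difference was alike with and without animals 3 and 7. It was 0.64 over all arrays (SE 0.10, limma unadjusted p = 0.000391, adjusted p = 0.275) and 0.58 without those 2 animals. Ccl8, a monocyte-attracting chemokine of the Ccl2 cluster, had log2 levels of 6.26 and 6.96 in WT PE hearts against 4.94 and 6.50 in WT untreated hearts, and 6.85 and 5.87 in S105A PE hearts against 5.24 and 5.32 in S105A untreated hearts. Untreated animal 2 was again high and reached into the PE range. The difference was 0.99 (SE 0.38, limma unadjusted p = 0.0386), with 0.92 left without animals 3 and 7 and 0.59 without untreated animal 1.

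The other Ccr2 ligands had smaller differences than their receptor. Ccl2, the main ligand of Ccr2, had log2 levels of 7.17 and 8.20 in WT PE hearts against 7.34 and 7.63 in WT untreated hearts, and 7.76 and 7.21 in S105A PE hearts against 7.28 and 7.44 in S105A untreated hearts. The groups overlapped throughout, and in WT the PE heart with the higher Ccr2, animal 3, had the lower Ccl2. In S105A the PE heart with the higher Ccr2, animal 7, had the higher Ccl2. The PE difference of Ccl2 was 0.17 (SE 0.24, limma unadjusted p = 0.511). Ccl7 differed by -0.01 (SE 0.22) and Ccl12, a further mouse ligand of Ccr2, by 0.24 (SE 0.16), both with overlapping groups. Across the 8 arrays, Pearson's r with Ccr2 was 0.0933 for Ccl2, -0.25 for Ccl7, 0.489 for Ccl12 and 0.624 for Ccl8. These correlations describe arrays that share groups, and without animals 3 and 7 they were 0.633, 0.583, 0.435 and 0.734 over 6 arrays.

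Ccl3, an inflammatory ligand of Ccr1, had log2 levels of 6.76 and 5.61 in WT PE hearts against 5.28 and 5.62 in WT untreated hearts, and 6.38 and 5.67 in S105A PE hearts against 5.26 and 5.48 in S105A untreated hearts. Animals 3 and 7 alone were clearly high, while animals 4 and 8 lay at the top of the untreated range. The difference of 0.69 (SE 0.28, limma unadjusted p = 0.0415) was 0.23 without them. Ccl4, a close relative of Ccl3, differed by 0.08 (SE 0.08), Ccl6, another Ccr1 ligand of the mouse, by 0.15 (SE 0.21), and Ccl5 by 0.12 (SE 0.09). The homeostatic ligands Ccl19 of Ccr7, Ccl25 of Ccr9 and Ccl28 of Ccr10 differed by 0.12, -0.07 and 0.05, each with overlapping groups.

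Of the 3 eotaxins, which bind Ccr3 and attract eosinophils, Ccl11 and Ccl24 lay on the lower side, while Ccl26 differed by -0.06 (SE 0.07, limma unadjusted p = 0.449) with overlapping groups. Ccl11 had log2 levels of 6.06 and 7.66 in WT PE hearts against 7.80 and 7.93 in WT untreated hearts, and 6.34 and 6.95 in S105A PE hearts against 7.57 and 7.24 in S105A untreated hearts. In each genotype both PE hearts were below both untreated hearts, with animals 3 and 7 the lowest, but WT PE animal 4 lay above both untreated S105A hearts. The difference was -0.88 (SE 0.34, 1.84-fold lower, limma unadjusted p = 0.0365, adjusted p = 0.287), and -0.33 without animals 3 and 7. Ccl24 ranged from 5.46 to 5.77 in PE hearts and from 5.60 to 6.00 in untreated hearts, a difference of -0.26 (SE 0.09, limma unadjusted p = 0.0303), and -0.16 without animals 3 and 7. Their receptor Ccr3 differed by -0.01 (SE 0.07). A summed level of 9 mast cell, eosinophil and platelet markers was 457 to 502 in PE hearts and 497 to 575 in untreated hearts. Only 3 of these 9 markers lay above the lowest 40% of genes by level. Ccr3 and the other markers lay among that 40%, where no change cannot be told from no detection.

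The membrane-anchored ligands lay on the same side of 0 as their receptors. Cxcl16, the ligand of Cxcr6, had log2 levels of 8.37 and 7.43 in WT PE hearts against 7.22 and 7.23 in WT untreated hearts, and 7.91 and 7.63 in S105A PE hearts against 6.95 and 7.06 in S105A untreated hearts. All PE hearts were above all untreated hearts, again with animals 3 and 7 the higher ones. The difference was 0.72 (SE 0.20, 1.64-fold, limma unadjusted p = 0.00873), and 0.41 without those animals. Cx3cl1, the ligand of Cx3cr1 that endothelium presents, had log2 levels of 9.17 and 7.77 in WT PE hearts against 7.69 and 7.68 in WT untreated hearts, and 7.99 and 7.70 in S105A PE hearts against 7.35 and 7.63 in S105A untreated hearts. Animal 3 carried most of its difference of 0.57 (SE 0.28, limma unadjusted p = 0.0874), which was 0.22 without animal 3 and 0.15 without animals 3 and 7. Pearson's r across the 8 arrays was 0.952 between Cxcl16 and Cxcr6 and 0.947 between Cx3cl1 and Cx3cr1, and 0.753 and 0.542 over the 6 arrays other than animals 3 and 7.

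The ligands that attract neutrophils lay near 0, but all were among the lowest 40% of genes by level. At such levels, no change cannot be told from no detection. Cxcl1 ranged from 5.98 to 6.30 in PE hearts and from 6.00 to 6.15 in untreated hearts, and Cxcl1, Cxcl2, Cxcl3, Cxcl5 and Cxcl15 had differences of 0.02, -0.03, -0.02, 0.20 and -0.11, with 0 of 5 at an unadjusted p under 0.05. Cxcl5, a Cxcr2 ligand, stood out in 1 heart, with 5.48 in WT PE animal 4 and 4.51 to 4.60 in the other PE hearts, against 4.41 to 4.74 in untreated hearts. The 2 interferon-induced ligands of the T cell receptor Cxcr3 pointed in opposite directions. Cxcl10 had log2 levels of 5.63 and 5.88 in WT PE hearts against 5.43 and 5.68 in WT untreated hearts, and 6.21 and 6.16 in S105A PE hearts against 5.72 and 5.62 in S105A untreated hearts. The S105A PE hearts were the highest, the WT PE hearts overlapped the untreated ones, and animals 3 and 7 did not stand apart, so the difference of 0.36 (SE 0.09, limma unadjusted p = 0.00534) was 0.41 without them. Cxcl9 differed by -0.49 (SE 0.28, limma unadjusted p = 0.127), and by -0.12 without animals 3 and 7, and Cxcr3 itself by 0.02 (SE 0.10).

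Cxcl12, the stromal ligand of Cxcr4 that retains cells in tissue, had log2 levels of 8.65 and 9.60 in WT PE hearts against 9.67 and 9.65 in WT untreated hearts, and 9.20 and 9.40 in S105A PE hearts against 9.54 and 9.64 in S105A untreated hearts. In each genotype both PE hearts were below both untreated hearts, although WT PE animal 4 lay between the untreated S105A hearts. Its difference was -0.41 (SE 0.19, limma unadjusted p = 0.0729), and -0.13 without animals 3 and 7. The summed level of 10 endothelial and lymphatic markers was 6750 to 8534 in PE hearts and 8132 to 9585 in untreated hearts, lowest in animals 3 and 7, and its part in the Cxcl12 values was not tested. Cxcl13, Cxcl14, Cxcl17 and Xcl1 differed by 0.01, -0.24, -0.01 and -0.03.

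**Figure D3:**
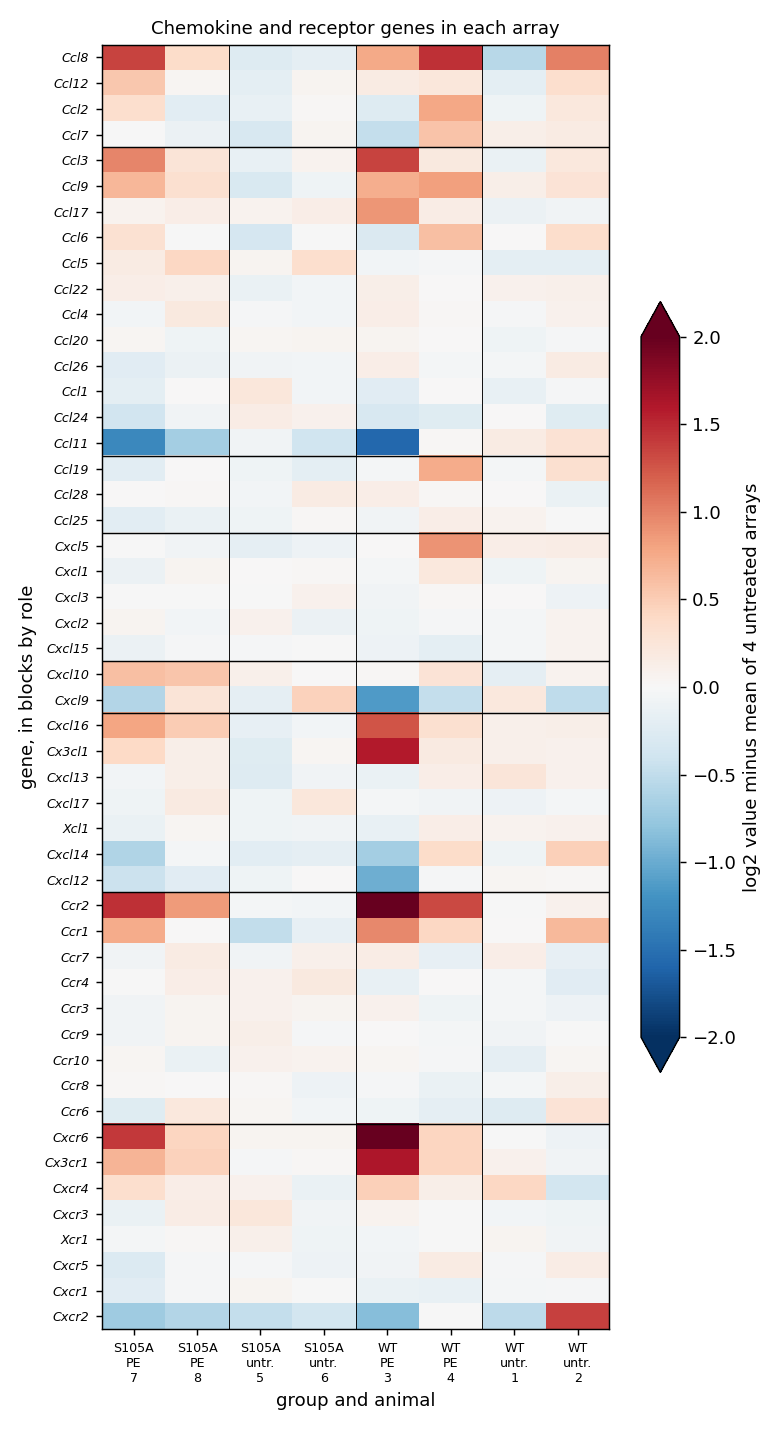
Each cell is the log2 value of 1 gene in 1 array minus the mean of the 4 untreated arrays, with genes in blocks by role and columns by group and animal. The columns of animals 3 and 7 carry most of the dark cells of both signs. Of the 9 genes at least 0.5 higher with PE on average, 7 were higher in animal 3 than 4 and 9 higher in animal 7 than 8. High values in animals 3 and 7 themselves help a gene into this choice. Over all 50 genes, 24 were higher in animal 3 than 4 and 22 higher in animal 7 than 8.

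The family is also ordered by position in the genome, which the choice by symbol did not use. In the gene table of GRCm38.p6, 14 of the 50 genes lie on chromosome 11, among them 11 of the CC ligands, 10 on chromosome 5 and 10 on chromosome 9. Ccr2, Cxcr6, Cx3cr1 and Ccr1 all belong to the set on chromosome 9, where Ccr3, Ccr4, Ccr8, Ccr9, Cxcr5 and Xcr1 with differences within 0.05 of 0 lie as well. Ccl9 and Ccl8 share chromosome 11 with Ccl2, Ccl7 and Ccl11.

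Promoter windows of 250 bases before a transcript start were taken from RefSeq (GRCm38.p6), which held them for 37 of the 50 genes. The letters GGNNTTTCC, the core shape of many NF-kB sites, were looked for on both strands, with no second motif. They were present in 8 of 37 genes (21.6%), where a gene with several windows counted once. These were 7 of 23 ligands (30.4%) and 1 of 14 receptors (7.14%), beside 5.62% of the 27025 genes with a promoter searched in all. The windows below show the 2 receptors with the largest differences, which held no match, and the ligands Ccl9 and Cxcl10 with the smallest p among genes holding a match. Also shown are Cxcl1 and Cxcl2, which hold 2 matches each and had PE differences near 0 at levels among the lowest 40% of genes. Cxcl9, whose window is not shown, holds 2 matches as well and had a PE difference of -0.49. Capitals mark the matches on either strand, and all are written 5′ to 3′ on the strand of the gene. Ccr2 is at chr9:124101933-124102182 on the plus strand, before a start inside the annotated gene, and Cxcr6 at chr9:123806227-123806476 on the plus strand. Ccl9 is at chr11:83578637-83578886 on the minus strand with its match starting at position -35, and Cxcl10 at chr5:92348890-92349139 on the minus strand with its match at -158. Cxcl1 is at chr5:90890995-90891244 on the plus strand with matches at -89 and -70, and Cxcl2 at chr5:90903649-90903898 on the plus strand with matches at -96 and -77.
Ccr2: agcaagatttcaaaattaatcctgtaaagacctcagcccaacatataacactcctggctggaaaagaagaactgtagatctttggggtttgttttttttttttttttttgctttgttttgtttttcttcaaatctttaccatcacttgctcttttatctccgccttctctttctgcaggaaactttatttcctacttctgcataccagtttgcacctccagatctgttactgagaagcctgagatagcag
Cxcr6: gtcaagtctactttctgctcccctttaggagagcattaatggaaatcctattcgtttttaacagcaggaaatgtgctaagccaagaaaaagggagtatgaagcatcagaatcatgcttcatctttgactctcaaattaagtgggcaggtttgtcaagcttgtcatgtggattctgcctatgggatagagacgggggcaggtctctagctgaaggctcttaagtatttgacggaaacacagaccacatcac
Ccl9: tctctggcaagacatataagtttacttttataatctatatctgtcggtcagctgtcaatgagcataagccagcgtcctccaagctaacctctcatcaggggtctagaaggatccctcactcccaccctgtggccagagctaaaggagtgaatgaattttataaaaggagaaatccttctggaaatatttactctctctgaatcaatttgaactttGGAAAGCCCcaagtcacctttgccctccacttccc
Cxcl10: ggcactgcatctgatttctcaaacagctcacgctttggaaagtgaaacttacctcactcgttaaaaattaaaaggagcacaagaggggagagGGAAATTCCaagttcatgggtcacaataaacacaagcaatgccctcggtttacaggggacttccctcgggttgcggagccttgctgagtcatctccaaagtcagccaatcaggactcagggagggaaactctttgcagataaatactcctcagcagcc
Cxcl1: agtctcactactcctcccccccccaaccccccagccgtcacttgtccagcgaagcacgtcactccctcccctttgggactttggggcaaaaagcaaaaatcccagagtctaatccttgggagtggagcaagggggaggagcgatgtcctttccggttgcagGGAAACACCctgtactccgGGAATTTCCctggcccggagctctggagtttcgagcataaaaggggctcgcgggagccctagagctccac
Cxcl2: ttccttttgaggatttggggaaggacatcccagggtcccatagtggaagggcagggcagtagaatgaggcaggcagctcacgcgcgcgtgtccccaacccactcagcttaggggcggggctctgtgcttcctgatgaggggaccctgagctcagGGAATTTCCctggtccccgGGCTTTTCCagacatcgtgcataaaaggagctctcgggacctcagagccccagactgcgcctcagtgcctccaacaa
A match of letters is a description of these windows. The 7 ligands with a match were Ccl9, Cxcl10, Cxcl1, Ccl20, Cxcl3, Cxcl2 and Cxcl9, with PE differences of 0.64, 0.36, 0.02, 0.00, -0.02, -0.03 and -0.49, and the receptor was Ccr3 with -0.01.

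Cell type markers were read in the same arrays. Of 16 measured monocyte and macrophage markers, 12 were higher and 0 lower at an unadjusted p under 0.05, with a median log2 difference of 0.76. Their summed level was 8161 to 14638 in PE hearts and 5553 to 7692 in untreated hearts, with Timd4 the dimmest and Lyz2 the brightest gene of the list. Ccr2 followed that sum with a Pearson's r of 0.950 across the 8 arrays and 0.874 without animals 3 and 7, Cxcl16 with 0.959 and 0.855, Ccl9 with 0.880 and 0.943, and Cxcr6 with 0.921 and 0.647. With the fibroblast sum the values were 0.953 and 0.909 for Ccr2, 0.976 and 0.932 for Cxcl16, 0.805 and 0.798 for Ccl9, and 0.958 and 0.838 for Cxcr6. Thus Ccr2, Cxcl16 and Cxcr6 followed the fibroblast sum at least as closely as the macrophage sum, and Ccl9 followed it less closely. The part of macrophage and fibroblast content in these differences was not tested. T and NK cell markers, a list of 13 for the cells that Cxcr6 and Cxcr3 are best known from, summed to 540 to 631 in PE hearts and 580 to 627 in untreated hearts. B cell markers summed to 206 to 247 in PE hearts and 225 to 249 in untreated hearts. Only 1 of the 13 T and NK cell markers and 1 of the 5 B cell markers lay above the lowest 40% of genes by level. Where most of a list lies so low, no change cannot be told from no detection. These sums therefore do not show whether T, NK or B cell content changed. Dendritic cell markers summed to 1936 to 3149 in PE hearts and 1765 to 2382 in untreated hearts, and 2 of 9 were higher, among them Cd209a by 0.85. The genes outside the family most like Ccr2 over the 8 arrays were Cyth4, Thbs1, Svep1, Col18a1 and Rcan1, with Pearson's r from 0.988 to 0.992. For Cxcl16 they were Niban1, Scarf2, Scamp2, Adamtsl5 and Anxa5 (0.989 to 0.995), and for Ccl9 Sgcd, Il13ra1, Rpl9, Snx5 and Npl (0.961 to 0.982).

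**Figure D4:**
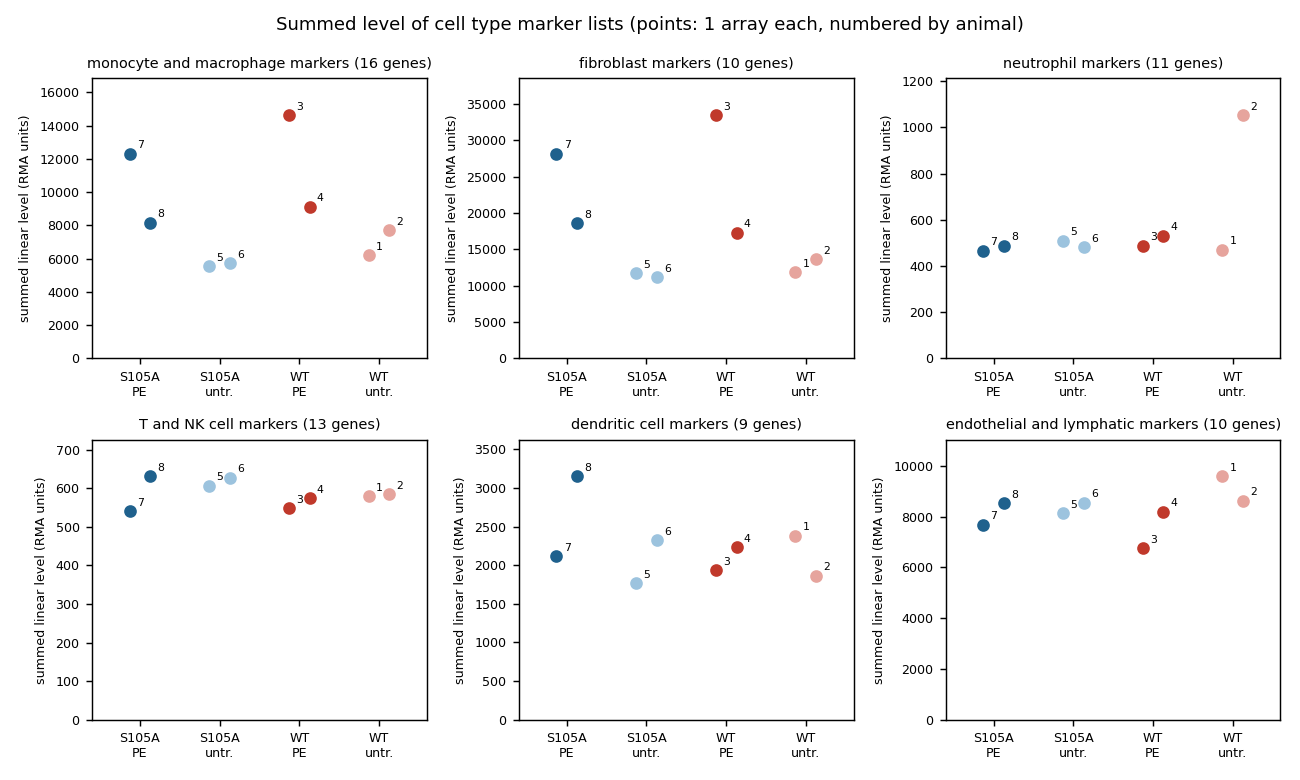
Summed linear level of 6 cell type marker lists in each array (points, numbered by animal), with each vertical axis starting at 0. Monocyte and macrophage markers and fibroblast markers are higher in all PE hearts than in all untreated hearts and highest in animals 3 and 7, and neutrophil markers are high in untreated animal 2 alone.

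Genes around the chemokine system were counted in the same fit, and 0 of these lists held a gene past the adjusted threshold. Over all genes, 9.31% were higher and 7.44% lower at an unadjusted p under 0.05. In the signalling that receptors couple to, 11 of 21 genes were higher and 0 lower at an unadjusted p under 0.05, with a median of 0.31. The smallest p belonged to Rac2 (0.37), Pik3cg (0.65), Dock2 (0.69) and the G protein subunit Gnai3 (0.45), genes that leukocytes use to move. Of 12 genes for trimming or holding chemokines, 7 were higher and 0 lower, also with a median of 0.31. These included the matrix proteases Mmp2 (1.03) and Mmp14 (1.62), the syndecan Sdc4 (0.33) and Ext1 (0.58), which builds heparan sulfate. Of 24 inducing cytokines and NF-kB genes, 2 were higher and 0 lower, with a median of 0.03. Il33, an alarmin, differed by 1.16 (SE 0.18) and Il6 by 0.44 (SE 0.11), whereas Il1b and Tnf, classical inducers of chemokines, differed by -0.16 and -0.14. Among 11 atypical receptors and chemokine genes outside the symbol rule, 1 was higher and 1 lower. The lower one was Ppbp, the platelet basic protein that gives rise to a Cxcr2 ligand, with log2 levels of 6.97 to 7.49 in PE hearts and 7.74 to 8.21 in untreated hearts and a difference of -0.67 (SE 0.13, limma unadjusted p = 0.00157).

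PE against untreated was then read within each genotype, in comparisons between different hearts. Both tests took their spread from the same fit of all arrays, so their p-values were not independent of each other. In WT, 0 of the 50 genes passed an adjusted p of 0.05 by limma, beside 0.00502% of all genes. At an unadjusted p under 0.05, Ccr2, Ccl9, Cx3cr1, Cxcr6, Cxcl16 and Ccl17 were higher (6 of 50, beside 5.99% of all genes) and 0 were lower (beside 5.76%). Ccr2 differed by 1.90 (SE 0.39, 3.72-fold), Cxcr6 by 1.29 (SE 0.52), Cx3cr1 by 1.02 (SE 0.34), Cxcl16 by 0.67 (SE 0.28) and Ccl9 by 0.58 (SE 0.14). Without animal 3 these differences in WT were 1.27 for Ccr2, 0.49 for Cxcr6, 0.42 for Cx3cr1, 0.20 for Cxcl16 and 0.63 for Ccl9. Ccl17, a ligand of Ccr4, had log2 levels of 6.69 and 5.96 in WT PE hearts against 5.68 and 5.74 in WT untreated hearts, a difference of 0.62 (SE 0.21) that was 0.25 without animal 3. The lowest in WT were Ccl11 (-1.0, SE 0.48), Cxcr2 (-0.84, SE 0.57), Cxcl9 (-0.67, SE 0.40), Cxcl12 (-0.54, SE 0.27) and Cxcl15 (-0.17, SE 0.09). Of these, Ccl11 was at -0.21, Cxcl9 at -0.35 and Cxcl12 at -0.06 without animal 3, and Cxcr2 at 0.10 without animal 2. Without animal 4, where animal 3 stands alone for WT PE, 10 members passed the adjusted threshold, and without animals 3 and 7 Ccr2 (1.27, limma adjusted p = 0.00712) and Cxcl5 (0.75, limma adjusted p = 0.0479) did.

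In S105A hearts, 0 of the 50 genes passed by limma, beside 0.00% of all genes. At an unadjusted p under 0.05, Ccl9, Cxcl10, Ccr2, Ccl22 and Cxcl16 were higher (5 of 50, beside 3.09% of all genes), and Ccl24 was lower (1 of 50, beside 2.77%). Ccr2 differed by 1.19 (SE 0.39, 2.29-fold), Cxcl16 by 0.76 (SE 0.28), Ccl9 by 0.69 (SE 0.14) and Cxcl10 by 0.52 (SE 0.12). Ccl22, a ligand of Ccr4, had log2 levels of 4.65 and 4.62 in S105A PE hearts against 4.38 and 4.45 in S105A untreated hearts, a difference of 0.22 (SE 0.08) at a level among the lowest 40% of genes. Ccl24 differed by -0.36 (SE 0.13), and by -0.20 without animal 7. Ccl11 (-0.76, SE 0.48), Ccl1 (-0.20, SE 0.14), Cxcr1 (-0.15, SE 0.09) and Ccl25 (-0.14, SE 0.10) were next on the lower side. Without animals 3 and 7 Ccr2 passed with 0.89 (limma adjusted p = 0.0413). The count of 6 members at an unadjusted p under 0.05 was 2 without animal 5, 6 or 7 and 13 without animal 3 or 4.

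The difference between the genotypes in their response to PE was tested directly, and 0 of the 50 genes passed by limma, beside 0.00% of all genes. At an unadjusted p under 0.05, 0 members had a larger difference in S105A (beside 0.903% of all genes) and 0 a smaller one (beside 1.52%). For Ccr2 the difference of differences was -0.70 (SE 0.55, limma unadjusted p = 0.241), but -0.08 without animal 3, -1.32 without animal 4 and -0.38 without animals 3 and 7. It was for Ccl17 -0.61 (SE 0.30) and -0.24 without animal 3, for Cxcl13 0.36 (SE 0.18), for Cxcl10 0.32 (SE 0.18) and for Ccl22 0.26 (SE 0.11, limma unadjusted p = 0.0551). The count at an unadjusted p under 0.05 was 11 without animal 4 and 4 without animal 3. For Ccr2, with an SE of 0.55, unequal responses of the size of its estimate were not detectable with 2 arrays per group.

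S105A against WT was compared last. Averaged over the treatments, 0 of the 50 genes passed an adjusted p of 0.05 by limma, beside 0.00502% of all genes, and the smallest adjusted p was 0.927. At an unadjusted p under 0.05, Ccl5, Ccr4 and Cxcl10 were higher in S105A (3 of 50, beside 2.30% of all genes) and Ccl9 was lower (1 of 50, beside 2.69%). Ccl5, a T cell and macrophage chemokine that binds Ccr1 and Ccr3, had log2 levels of 7.52 and 7.77 in S105A PE hearts against 7.30 and 7.33 in WT PE hearts, and 7.42 and 7.69 in S105A untreated hearts against 7.17 and 7.16 in WT untreated hearts. All 4 S105A hearts lay above all 4 WT hearts, and neither treatment nor animals 3 and 7 set them apart. The share of all genes separated by genotype in this way was not counted, and Ccl5 had the smallest p of the members here. The level of Ccl5 was 7.60 ± 0.16 in S105A and 7.24 ± 0.09 in WT hearts (SD, 4 arrays each). This was a difference of 0.36 (SE 0.09, limma unadjusted p = 0.00502, adjusted p = 0.927). Ccl9 was 0.34 lower in S105A hearts on average (log2 difference -0.34, SE 0.10, limma unadjusted p = 0.0108), the opposite of its difference with PE. Without animal 3, Cxcl5 passed with S105A below WT (-0.60, limma adjusted p = 0.0494), and without animal 4 Cx3cl1 and Cx3cr1 did, each of which has its extreme value in the other WT PE heart. The count of 4 members at an unadjusted p under 0.05 was 15 without animal 3 and 13 without animal 4.

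In untreated hearts alone, 0 of 50 passed by limma beside 0.00% of all genes. Ccl5 (0.39, SE 0.12) and Ccr4 (0.27, SE 0.11) were higher in S105A at an unadjusted p under 0.05 (2 of 50, beside 2.43% of all genes). Ccl9 (-0.40, SE 0.14), Cxcl13 (-0.33, SE 0.13), the ligand of the B cell receptor Cxcr5, and Ccl22 (-0.20, SE 0.08) were lower (3 of 50, beside 2.53%). This count of 5 was 1 without animal 2 or 5 and 2 without animal 6. In hearts with PE, 0 of 50 passed, beside 0.00% of all genes, and Cxcl10 (0.43, SE 0.12) and Ccl5 (0.33, SE 0.12) were higher in S105A at an unadjusted p under 0.05 (2 of 50, beside 1.25% of all genes), with 0 lower (beside 1.43%). Ccr2 (-0.79, SE 0.39) and Ccl9 (-0.28, SE 0.14) had the smallest unadjusted p on the lower side in S105A PE hearts, without reaching 0.05. This count of 2 was 9 without animal 3, 11 without animal 4 and 1 without animal 1, 2 or 8, and 5 members passed the adjusted threshold without animal 4, Ccr2 (-1.41), Cx3cl1 (-1.33) and Cx3cr1 (-1.05) among them. Without animal 3 the same genes were at -0.17, 0.07 and 0.15, so these values depended on which WT PE heart was kept. Ccl5 was at 0.20 with PE without animal 8, and at 0.25 in untreated hearts without animal 6.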

How the data were processed

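Biotinylated cRNA was made from the RNA of 8 hearts, and each heart had its own array, per the labels' protocols. The authors deposited log2 values from RMA, a tool named in the submitters' processing notes. Neither its version nor any background level is given in the sources used here, and RMA would remove a shift shared by most genes. The table had 35557 rows, of which 21789 probe sets carry 1 symbol, 1621 several and 12147 none in the platform annotation, giving 19938 genes (19855 matched to RefSeq GRCm38.p6 by Entrez identifier). Groups came from the titles, and the titles number separate animals. All genes and 8 arrays entered one linear model of the 4 group means in limma 3.58.1 in R 4.3.3 (4 residual and 2.74 prior degrees of freedom), 7 contrasts were tested two-sided, and p-values were adjusted by Benjamini-Hochberg across the whole table for each contrast (threshold 0.05). The fit was tested on simulated data. No set was tested.

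The members, the role, pathway and marker lists and the alternatives were chosen with earlier results of these data known. The text names up to 12 members per direction with the smallest p and an averaged PE difference of at least 0.5, up to 5 per direction in each other contrast, a fixed set of members, up to 4 genes per list, and the 5 genes most like each of 3 members; a part of the rule on the brightest and dimmest member of each role was not used, since levels of different probe sets are not comparable. Other members named for completeness of a role, Il1b and Tnf were chosen after their values were seen. Of the 50 members, 18 lie above the level of the lowest 40% of genes and 32 below it. Alternatives were that filter, probe sets averaged per gene, every row tested, centred arrays, array weights, an added quantile normalization, a robust variance with a trend, no interaction term, only the 4 arrays compared, and leaving out arrays. The number of arrays limits the precision. Figures were drawn with matplotlib 3.10.9.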

Additional observations from a re-analysis of the deposited data

How the results depend on the processing

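Over all the alternatives run, 4545 differences of single members were recomputed, and 33 passed the adjusted threshold newly. The sign turned in 229, all of members at an unadjusted p of 0.05 or more, and in 0 of the 545 for members under it. Of the counts split by direction and the medians of the contrasts of genotype and of response, 101 moved by more than 1.5 times or by more than the spread between arrays. The counts depended most on which arrays were kept. A group left with 1 array adds nothing to the estimated spread, and that lone array is assumed to vary like the other groups. Leaving out 1 array at a time gave these ranges. PE averaged over genotypes had 0 to 4137 genes and 0 to 10 members past the adjusted threshold, 5 to 15 members at an unadjusted p under 0.05, and a median member difference of -0.01 to 0.05. PE in WT had 0 to 3541 genes, 0 to 10 members, 3 to 12 members and a median of 0.00 to 0.08. PE in S105A had 0 to 1 gene, 0 members, 2 to 13 members and a median of -0.04 to 0.07. The difference in PE effect had 0 to 7 genes and 0 to 11 members at an unadjusted p under 0.05. The genotype effect had 0 to 3 genes and 1 to 6 members without PE, 0 to 711 genes, 0 to 5 members past the adjusted threshold and 1 to 11 members with PE, and 0 to 225 genes, 0 to 2 members and 3 to 15 members on average. Without animals 3 and 7, genes past the adjusted threshold numbered 137 (PE averaged), 58 (PE in WT), 30 (PE in S105A), 1 (difference in PE effect), 4, 5 and 22 (genotype without PE, with PE and averaged). Members past it numbered 1, 2 and 1 for the same 3 PE comparisons and 1 for genotype averaged, the PE medians were 0.07, 0.08 and 0.07, and members at an unadjusted p under 0.05 numbered 10 (PE in WT), 4 (difference), 11, 9 and 11 (genotype without PE, with PE and averaged).

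Without the 40% of genes of lowest level, 18 members remain. Members at an unadjusted p under 0.05 then numbered 5, 3 and 3 for PE averaged, in WT and in S105A. They numbered 2, 1 and 2 for genotype without PE, with PE and averaged, and the PE medians were 0.12, 0.13 and 0.09. With arrays centred on their medians the PE median was -0.04 averaged and -0.02 in WT, so its sign turned, with 1 member for the difference in PE effect and 1 gene for genotype without PE. Array weights gave 2 and 1 genes for PE in WT and in S105A, 10 members for PE in S105A, 1 member for the difference, 6 genes for genotype without PE and on average, and 1 member with PE. Fits of only the 4 arrays compared gave 0 genes and 2 members for PE in WT, 13 members for PE in S105A, 4 genes and 11 members for genotype without PE, and 1 member with PE. Testing all rows gave 0 genes for PE in WT and for the averaged genotype effect. A further quantile normalization gave 2 members for the difference, and a trended and robust variance gave 1 member there and 1 gene for genotype without PE. Averaging probe sets per gene gave 1 gene for genotype without PE, and no interaction term gave 4 for the averaged genotype effect. The cause of these changes was not tested. No paired analysis was possible because the titles number the 8 animals once each. Signal over background was not used here, and 32 members lie among the dimmest 40% of genes.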

Other observations

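Some chemokine probe sets match several near-identical genes and stayed out of the comparisons. The Ccl21 genes, ligands of Ccr7 made by lymphatic endothelium, are covered by 4 probe sets with identical values, 8.84 to 9.40 in PE hearts and 8.59 to 9.25 in untreated hearts, a log2 difference of 0.13 (SE 0.12, limma unadjusted p = 0.298). The probe sets of the Ccl27 genes, ligands of Ccr10, had PE differences of -0.16 to -0.20. The 5 probe sets annotated to Ccl19, the other ligand of Ccr7, gave PE differences of 0.12 to 0.13, so the choice among them did not matter here.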
